A study of Mus musculus with 5 samples.

Results

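The AP-1 and immediate early genes described here are the 10 genes Jun, Junb, Jund, Fos, Fosb, Fosl1, Fosl2, Egr1, Ier2 and Atf3, out of 21938 protein-coding genes of the mouse annotation. They were listed by name, and the list was chosen from the peaks that Gfi1 and Lsd1 have at these genes in the same 4 peak lists, by whole-gene cover, peak width, score percentile and overlap of both factors. Those measures are therefore described and not tested. The samples are MG medulloblastomas, cerebellar tumors grown in NSG mice (an immunodeficient host) from Prominin1+ neural stem cells of C57BL/6 cerebella that received retroviruses encoding a stabilised Myc and Gfi1. The labels give donors 5 to 7 days old and adult tumor-bearing hosts. Chromatin of 2 tumors, numbered 39 (replicate 1) and 41 (replicate 2), was immunoprecipitated with a rabbit polyclonal antibody to Gfi1 and with another to Lsd1, so that the libraries are paired by tumor and both carry the same retroviral genes. Gfi1 is here expressed from the retrovirus, the tissue can hold host cells, and no library of normal stem cells or of tumors without Gfi1 was analysed here. The sample list also holds an input from a pool of MGB (Myc and Gfi1b) tumors, which was not analysed here, and whether it was the control for all 4 peak lists is not stated. Peak lists carry no RNA levels, so the labelled tissue could not be checked against its marker genes.

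Jun and Fos proteins pair through leucine zippers to form AP-1, a transcription factor that binds a short palindromic site in promoters and enhancers. Several of their genes, though not all, belong with Egr1, Ier2 and Atf3 to the immediate early genes, which are short for the most part. Immediate early genes are transcribed within minutes of a growth factor, of stress or of neuronal activity without the synthesis of new protein. Fos and Egr1 are widely used as markers of recently active neurons. Gfi1 is a zinc finger repressor whose SNAG domain recruits Lsd1, an enzyme that removes methyl groups from histone tails.

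The Gfi1 lists held 36836 and 25078 peaks in tumors 39 and 41 and the Lsd1 lists 30367 and 33213, with median widths of 1443, 1596, 1765 and 1606 bp. Each peak has a position in mm10 and a score, and the score was read as a percentile within its own list, where 100 is the highest. Many peaks share a score of 3100 or lie above it, namely 910, 13, 138 and 488 in the same order of libraries, so that this score stands at percentile 98.6, 99.97, 99.7 and 99.2. A percentile of 98.6 in one list and 99.7 in another can therefore be the same tied score. The lists carry no read counts, and no precision from depth can be given for a single peak. The spread between the tumors, as SD with n = 2, is the only error.

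Promoter sequences are shown first, because the peaks described below lie over them. Promoter sequence of 300 bases (250 before and 50 after the start) was found for 7 of the 10 genes in RefSeq on GRCm38.p6, and Egr1, Fosl1 and Ier2 were missing from that table. The promoters of Jun (chr4:95052173-95052472, minus strand), Fos (chr12:85473640-85473939, plus strand), Fosb (chr7:19309996-19310295, minus strand) and Fosl2 (chr5:32136222-32136521, plus strand) lay wholly inside the peak of all 4 libraries. They are printed because Jun had the same single peak throughout, Fos had peaks of changing width, Fosb had a much wider Lsd1 than Gfi1 peak and Fosl2 had 1 narrow Gfi1 peak. The last sequence is the centre of a site downstream of Fos (chr12:85486582-85486881, plus strand, mm10), the highest of the sites away from any start site. Each is written 5′ to 3′, and capitals mark AATC, the core of the Gfi1 motif, and TGACG, the half-site of the cAMP response element, on either strand.
Jun promoter: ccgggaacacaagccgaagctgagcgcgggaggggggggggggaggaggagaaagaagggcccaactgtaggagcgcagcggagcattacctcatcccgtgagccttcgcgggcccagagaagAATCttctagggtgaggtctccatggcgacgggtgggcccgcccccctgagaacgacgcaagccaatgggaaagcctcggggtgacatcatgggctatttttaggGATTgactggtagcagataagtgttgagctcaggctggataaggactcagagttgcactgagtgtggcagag
Fos promoter: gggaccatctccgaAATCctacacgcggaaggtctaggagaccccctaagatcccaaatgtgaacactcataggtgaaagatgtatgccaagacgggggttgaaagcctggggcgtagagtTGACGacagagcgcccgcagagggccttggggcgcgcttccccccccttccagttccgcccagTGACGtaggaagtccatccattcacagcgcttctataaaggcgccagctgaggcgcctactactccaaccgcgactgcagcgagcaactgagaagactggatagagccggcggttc
Fosb promoter: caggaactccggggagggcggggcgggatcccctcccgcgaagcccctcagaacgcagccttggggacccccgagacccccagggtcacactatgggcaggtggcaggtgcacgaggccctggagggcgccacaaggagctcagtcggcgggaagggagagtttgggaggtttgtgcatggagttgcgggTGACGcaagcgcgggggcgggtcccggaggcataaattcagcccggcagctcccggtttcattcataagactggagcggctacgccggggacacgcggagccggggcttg
Fosl2 promoter: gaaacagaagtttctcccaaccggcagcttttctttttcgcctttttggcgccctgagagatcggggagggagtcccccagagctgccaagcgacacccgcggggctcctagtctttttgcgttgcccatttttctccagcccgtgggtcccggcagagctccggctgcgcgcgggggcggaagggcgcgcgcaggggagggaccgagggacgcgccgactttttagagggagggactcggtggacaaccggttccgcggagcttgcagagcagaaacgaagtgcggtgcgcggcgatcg
Site downstream of Fos: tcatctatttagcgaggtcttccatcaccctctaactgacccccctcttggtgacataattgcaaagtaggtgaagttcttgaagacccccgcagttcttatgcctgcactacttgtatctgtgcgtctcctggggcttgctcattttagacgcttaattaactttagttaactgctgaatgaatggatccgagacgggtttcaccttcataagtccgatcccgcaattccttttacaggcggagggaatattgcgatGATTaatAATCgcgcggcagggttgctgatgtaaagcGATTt

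A peak was counted at a start site when it came within 1000 bp of an annotated transcription start site (TSS) of the gene. All 10 genes had such a peak in all 4 libraries, which was the case for 53.1% of the 21938 protein-coding genes. In 8 of the 10 it was in the upper 20% of the score in every library, against 19.9% of all genes, and the exceptions were Junb and Fosl1. The highest peak at a start site of these genes had a median percentile of 98.6 in tumor 39 and 98.0 in tumor 41 among the Gfi1 peaks, and of 97.9 and 98.7 among the Lsd1 peaks. Over all protein-coding genes with a peak at a start site the medians were 82.5, 77.4, 79.0 and 81.0. A score of 3100 or more was reached by 9, 1, 4 and 5 of the 10 genes, so that the Gfi1 library of tumor 39 hardly ranks them among each other.

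**Figure D1:**
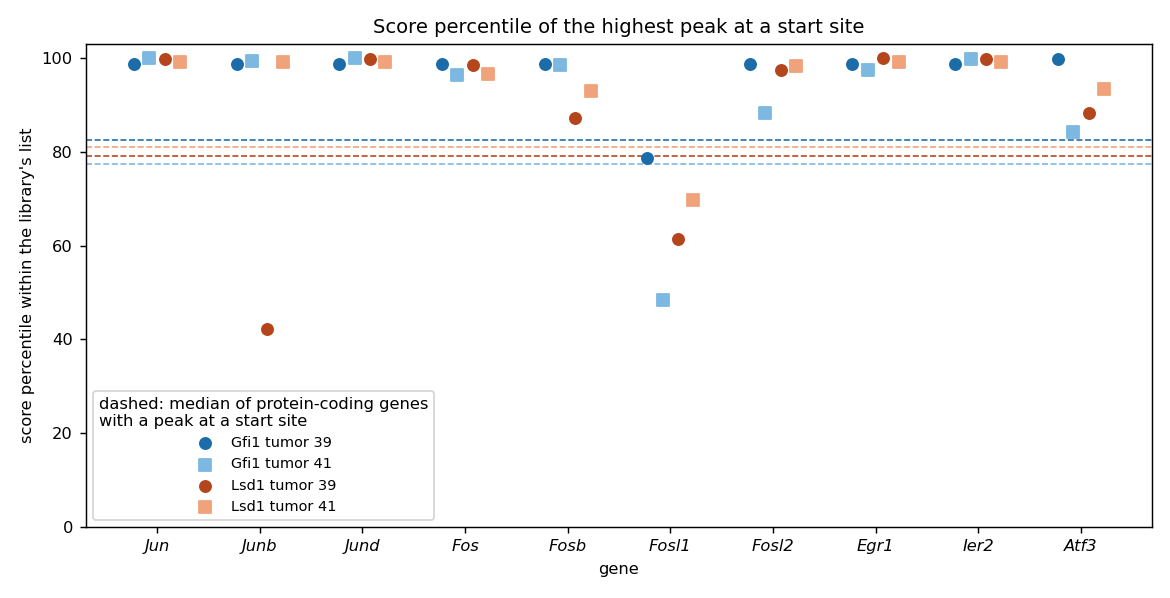
Score percentile within its own list (y axis, 0 to 100) of the highest peak at a start site for each of the 10 genes (x axis) in the Gfi1 and Lsd1 libraries of tumors 39 and 41, with dashed lines at the median of protein-coding genes with such a peak. Most points stand above 84, while those of Fosl1 run from 48.3 to 78.6 and the Lsd1 peak of Junb in tumor 39 stands at 42.1.

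Jun encodes the founding member of AP-1 and is a gene of 1 exon and 3189 bp on the minus strand of chromosome 4 (mm10, 95049034 to 95052222). Within the gene and 10 kb on either side, each of the 4 libraries had exactly 1 peak, and it lay on the start site. For Gfi1 this peak was 4658 bp wide in tumor 39 and 6160 bp in tumor 41, and for Lsd1 it was 6139 bp and 6346 bp wide. It scored 3100 in every library. The Gfi1 peak of tumor 39 began 2069 bp upstream of the start and ended 2588 bp downstream, inside the gene, so that it covered 81.2% of the gene. The other 3 peaks ran 4264, 4228 and 4218 bp downstream, past the end of the gene, and covered 100% of it. The start site of the antisense gene Junos lay under the peak in all 4 libraries and that of Gm12703 in the 3 wider ones, and the peak lists do not say to which start the signal belongs.

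Junb encodes a Jun protein that can hold back transcription by Jun. It is a gene of 2 exons and 4235 bp on the minus strand of chromosome 8 (84974484 to 84978718). Its peak was 7832 and 9654 bp wide for Gfi1 in tumors 39 and 41, and 15861 and 15233 bp for Lsd1, a mean of 8743 ± 1288 against 15547 ± 444 bp (SD, n = 2). The ranges of both factors did not overlap. Most of the added width lay upstream, where the Lsd1 peak reached 9690 and 8951 bp before the start site and the Gfi1 peak 4331 and 4453 bp. The Gfi1 lists were not empty there. Under the Lsd1 peak lay 4 separate Gfi1 peaks in tumor 39 and 2 in tumor 41, and all Gfi1 peaks together covered 87.0% and 90.7% of its length. That was near the medians of 88.6% and 89.2% over the 11653 genes with a peak at a start site in all 4 libraries. The score of the Junb peak was 3100 and 1848.59 for Gfi1 and 3100 for Lsd1 of tumor 41, but 155.22 for Lsd1 of tumor 39, at percentile 42.1 of that list. This library had 258 peaks of 10000 bp or more, of which 12 stood below percentile 50, so that a wide peak with a low score was rare but not confined to Junb. Whether the peak width bears on the score was not tested.

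Jund, whose product is the Jun protein found in most resting cells, is a gene of 1 exon and 1668 bp on the plus strand of chromosome 8 (70698949 to 70700616). Its peak was 9707 and 9456 bp wide for Gfi1 in tumors 39 and 41 and 11595 and 10453 bp for Lsd1, with percentiles of 98.6, 99.9, 99.7 and 99.2. It reached 4428 to 5945 bp upstream and 4925 to 6024 bp downstream of the start, so that every library covered the gene whole with wide margins on both sides. The start sites of Gm11175 and Iqcn lay under the same peak in all 4 libraries. RefSeq places the start of Jund at 70697739, which is 1210 bp before the GENCODE start, and a peak was present there in all 4 libraries as well.

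Fos encodes the partner that gives AP-1 much of its activity after a stimulus, and is a gene of 4 exons and 3384 bp on the plus strand of chromosome 12 (85473890 to 85477273). Its peak was 5219 and 3987 bp wide for Gfi1 in tumors 39 and 41 and 4261 and 3807 bp for Lsd1. The percentiles were 98.6, 96.4, 98.4 and 96.6. Unlike at the Jun genes, the peak was wider for Gfi1 than for Lsd1 in each tumor, but the means of 4603 ± 871 and 4034 ± 321 bp (SD, n = 2) differ by less than the spread of Gfi1. It extended 2302 to 2702 bp upstream in all libraries and 1457 to 2863 bp downstream. A second Lsd1 peak followed inside the gene in both tumors. The first Lsd1 peak ended 1558 and 1504 bp past the start in tumors 39 and 41. The second ran from 1719 to 2987 bp and from 1666 to 3139 bp, further than the Gfi1 peak at 2863 and 1457 bp. The comparison of widths therefore depends on where the peaks were parted. The gene was covered by 84.6%, 43.1%, 83.6% and 88.0%. The Gfi1 library of tumor 41 was the low one.

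Fosb, a Fos protein that builds up with repeated stimulation of neurons, is encoded by a gene of 5 exons and 7356 bp on the minus strand of chromosome 7 (19302696 to 19310051). The Gfi1 peak on its start site was 4673 bp wide in tumor 39 and 3739 bp in tumor 41, and the Lsd1 peak was 11785 and 11850 bp. The means were 4206 ± 660 and 11817.5 ± 46.0 bp (SD, n = 2), and the ranges did not overlap. Both factors began at nearly the same place, 1294 to 1370 bp upstream. The difference lay downstream, where Gfi1 ended 3378 and 2368 bp past the start site and Lsd1 ended 10449 and 10549 bp past it, beyond the end of the gene. In each tumor the single Lsd1 peak held 3 Gfi1 peaks with gaps between them, which covered 81.8% and 70.3% of its length. The medians of this share over the 11653 genes with a peak in all 4 libraries were 88.6% and 89.2%. The Lsd1 peak stood at percentile 87.3 and 93.0 of its lists, lower than the Gfi1 peak at 98.6 and 98.4. The start site of Gm26802 lay under the Lsd1 peak of both tumors and under neither Gfi1 peak on the Fosb start.

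**Figure D2:**
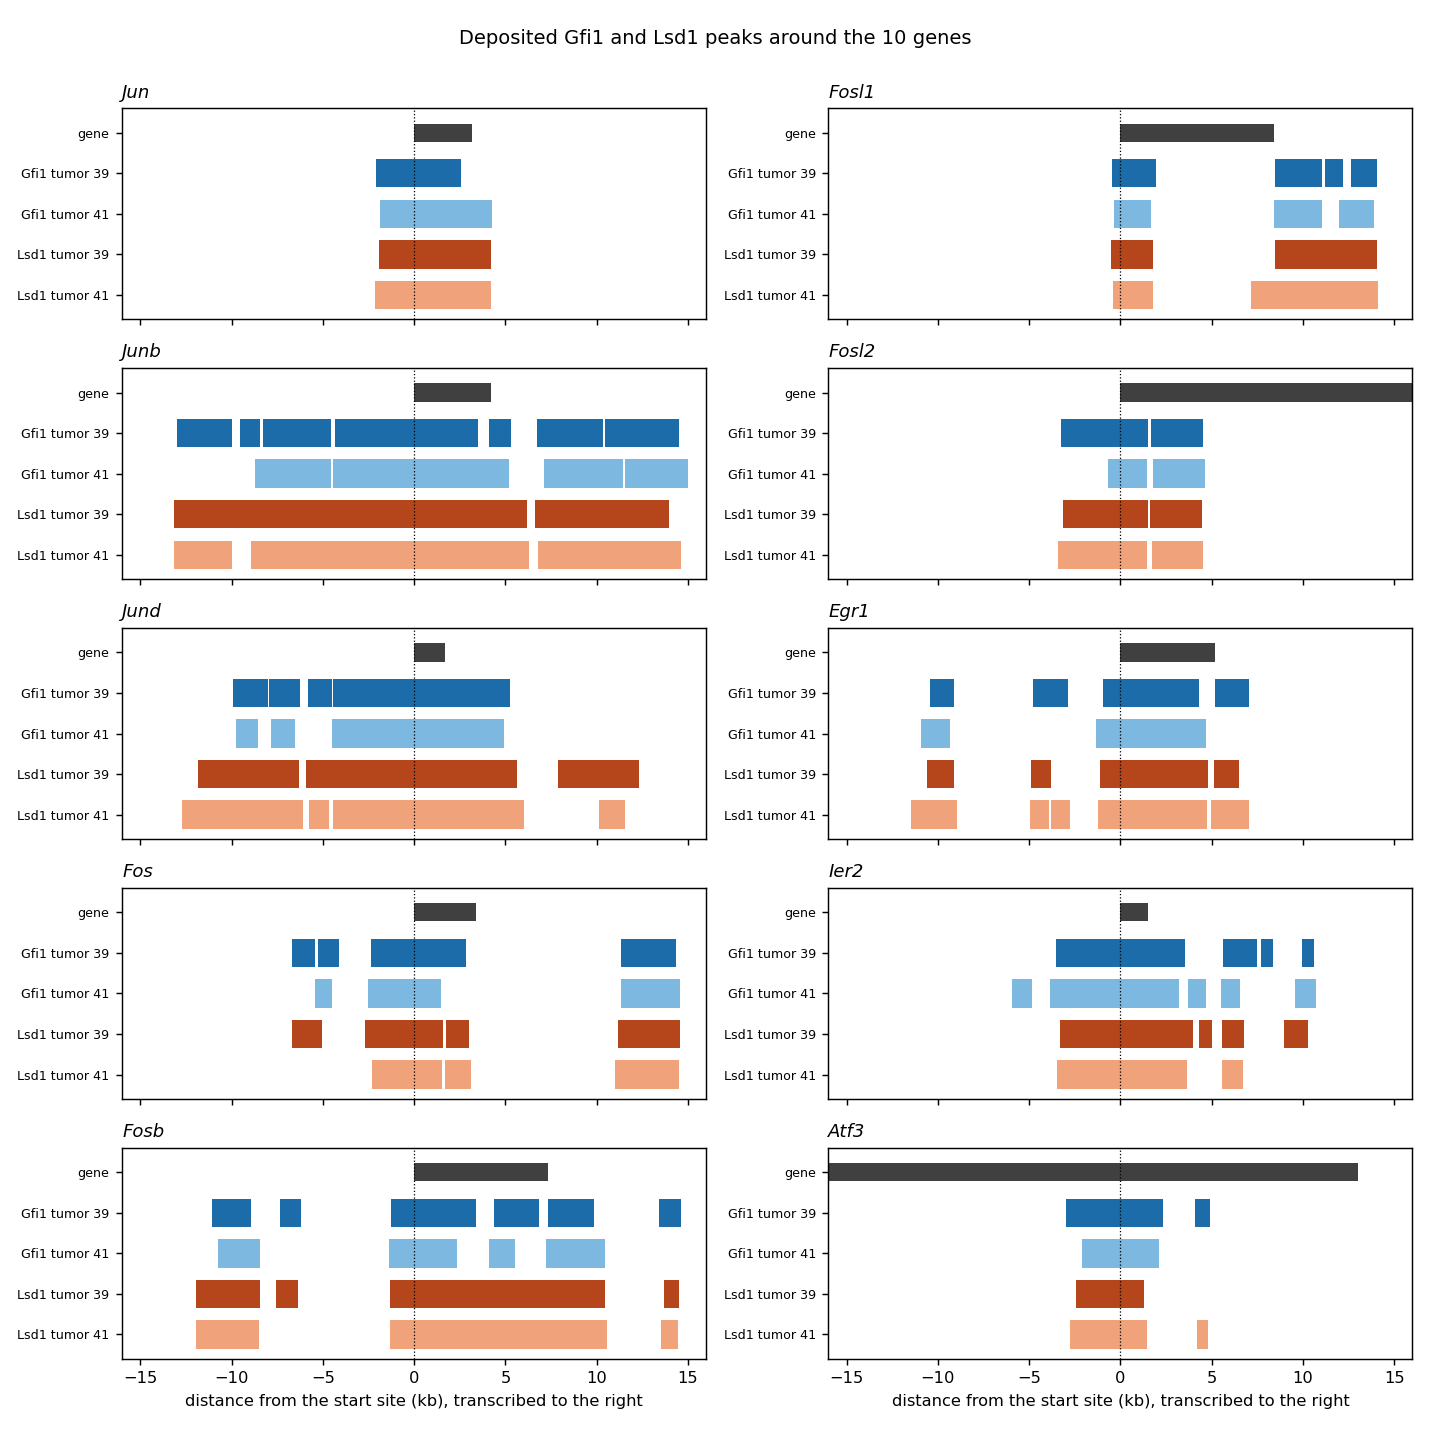
Deposited Gfi1 and Lsd1 peaks (coloured bars, 1 row for each library) around the start site of each of the 10 genes, with distance from the start site in kb on the x axis and the gene record as a black bar, transcribed to the right. Jun has 1 peak in each library, Junb and Fosb have single Lsd1 peaks of 11785 to 15861 bp where Gfi1 has several peaks, and Fosl1 has the narrowest peaks at its start.

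Fosl1 and Fosl2 encode the Fos-related proteins Fra-1 and Fra-2, which lack the strong activation domain of Fos. Fosl1, with 4 exons and 8400 bp on the plus strand of chromosome 19 (5447547 to 5455946), stood apart from the other 9 genes. Its peak was 2418, 2028, 2268 and 2178 bp wide for Gfi1 in tumors 39 and 41 and Lsd1 in tumors 39 and 41, and stood at percentile 78.6, 48.3, 61.4 and 69.7. The score was below the median of all genes with a peak in every library, and the width was below it in all but the Gfi1 library of tumor 39. The mean width was 2223 ± 276 bp for Gfi1 and 2223 ± 63.6 bp for Lsd1 (SD, n = 2). Fosl2 has 4 exons and 22042 bp on the plus strand of chromosome 5 (32135801 to 32157842). Its Gfi1 peak was 4761 bp wide in tumor 39 and 2171 bp in tumor 41, while its Lsd1 peak was 4664 and 4888 bp wide. The narrow Gfi1 peak of tumor 41 reached 707 bp upstream of the start where the other 3 reached 3130 to 3431 bp, and all 4 ended 1456 to 1533 bp downstream. The start site of Gm10463 lay under those 3 wider peaks.

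Egr1, a zinc finger activator, is encoded on the plus strand of chromosome 18 (34859823 to 34864984) by a gene of 3 exons and 5162 bp. Its peak was 5259 and 6001 bp wide for Gfi1 and 5958 and 5985 bp for Lsd1, with percentiles of 98.6, 97.5, 99.96 and 99.2. It lay mostly over the gene, with 949 to 1318 bp upstream of the start and 4309 to 4823 bp downstream, and covered between 83.5% and 96.5% of the gene when other peaks were added. Ier2, a small nuclear protein of the early response, has a gene of 1 exon and 1522 bp on the minus strand of chromosome 8 (84661331 to 84662852), the shortest of the 10. Its peak was the most even in width, with 7047 and 7053 bp for Gfi1 and 7314 and 7150 bp for Lsd1, and covered the whole gene in every library. Gm26664 had a start site under the Ier2 peak in all 4 libraries. Atf3, a stress-induced partner of Jun that mostly represses, has the longest record, 5 exons and 47744 bp on the minus strand of chromosome 1 (191170296 to 191218039). Its peaks lay at an internal start site at 191183340, and measured 5345 and 4206 bp for Gfi1 and 3733 and 4220 bp for Lsd1. The most upstream start of Atf3 had a peak within 1000 bp in the Lsd1 library of tumor 41 alone. The percentile of the Atf3 peak was 99.8 and 84.2 for Gfi1 and 88.3 and 93.5 for Lsd1.

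The 10 peaks were wide in comparison with other promoter peaks. Their median width was 5239 bp in tumor 39 and 5103.5 bp in tumor 41 with Gfi1, and 6048.5 and 6165.5 bp with Lsd1, against 2085.5, 2185, 2516 and 2380 bp over all genes with a peak at a start site. Averaged over the 4 libraries, the order was Junb (12145 bp), Jund (10303 bp), Fosb (8012 bp), Ier2 (7141 bp), Jun (5826 bp), Egr1 (5801 bp), Atf3 (4376 bp), Fos (4318.5 bp), Fosl2 (4121 bp) and Fosl1 (2223 bp). Of the 11653 protein-coding genes with a peak in all 4 libraries, 99.4% had a narrower mean peak than Junb, 93.7% than Jun, 87.3% than Fos and 40.4% than Fosl1. The order is loose, since the ranges over the libraries overlapped for 8 of the 9 neighbouring pairs. The exception was Ier2, at 7047 bp or more, which lay above Jun, at 6346 bp or less.

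The Lsd1 peak was wider than the Gfi1 peak at 6 of the 10 genes in tumor 39 and at 8 of 10 in tumor 41. Over the 11653 genes it was wider at 73% and 69.3%, so that these counts were near the general share. It was wider by 5000 bp or more in both tumors at Junb and Fosb, a limit set after the values were seen. This held for 0.472% of the 11653 genes with a peak in all 4 libraries, and the reverse, a Gfi1 peak wider by as much in both tumors, for 0% of them and none of the 10. The lists of Lsd1 had more peaks of 10000 bp or more, 258 and 241, than those of Gfi1, with 135 and 56, and the part of this difference in the widths at Junb and Fosb was not tested.

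**Figure D3:**
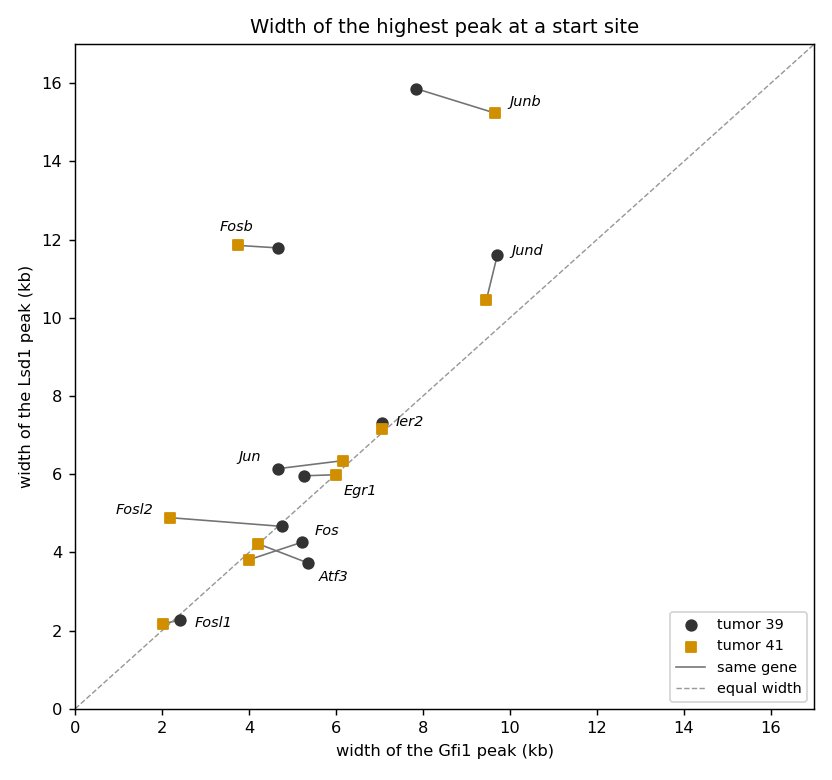
Width in kb of the highest Gfi1 peak (x axis) and Lsd1 peak (y axis) at a start site of each of the 10 genes, with a point for each tumor, a line that joins both tumors of a gene and a dashed line of equal width. Junb and Fosb lie far above the dashed line in both tumors, and Fosl2 lies above it in tumor 41, where its Gfi1 peak was 2171 bp wide against 4761 bp in tumor 39.

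Whole-gene cover, the share of the bases of the gene record under peaks of a library, was highest for the 2 shortest genes and lowest for the 3 longest, with no such order between them. A gene was counted as covered whole at 95% or more. Jund and Ier2, the shortest of the 10, were covered by 100% in all 4 libraries, which makes 2 of 10 genes against 1.52% of all protein-coding genes and 1.99% of those no longer than Atf3. Length has to be read with this number, since the 10 genes measure from 1522 to 47744 bp and the median protein-coding gene 17425 bp. Among the 275 genes no longer than Jund that had a peak at a start site in all 4 libraries, 62.5% were covered whole, a comparison added after the data had been seen. By library, 2 and 4 of the 10 genes were covered whole by Gfi1 peaks of tumors 39 and 41, and 5 and 6 by Lsd1 peaks, against 2.82%, 1.94%, 2.97% and 3.15% of all protein-coding genes.

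Jun and Junb missed the count through a single library, Gfi1 in tumor 39, with 81.2% and 85.4%, and were at 100% in the other 3. Without that library 4 of the 10 genes were covered whole. Fosb was covered by 79.8% and 53.5% for Gfi1 and by 100% in both Lsd1 libraries. Egr1 was covered by 83.5% and 90.7% for Gfi1 and by 94.4% and 96.5% for Lsd1. Fos, though shorter than Junb, Egr1 and Fosb, reached 95% in no library, with 43.1% to 88.0%. The long genes had little cover, with 19.2% to 20.02% for Fosl2, 19.98% to 35.9% for Fosl1 and 8.81% to 14.6% for Atf3, and their highest peak ended at most 2355 bp past a start site.

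**Figure D4:**
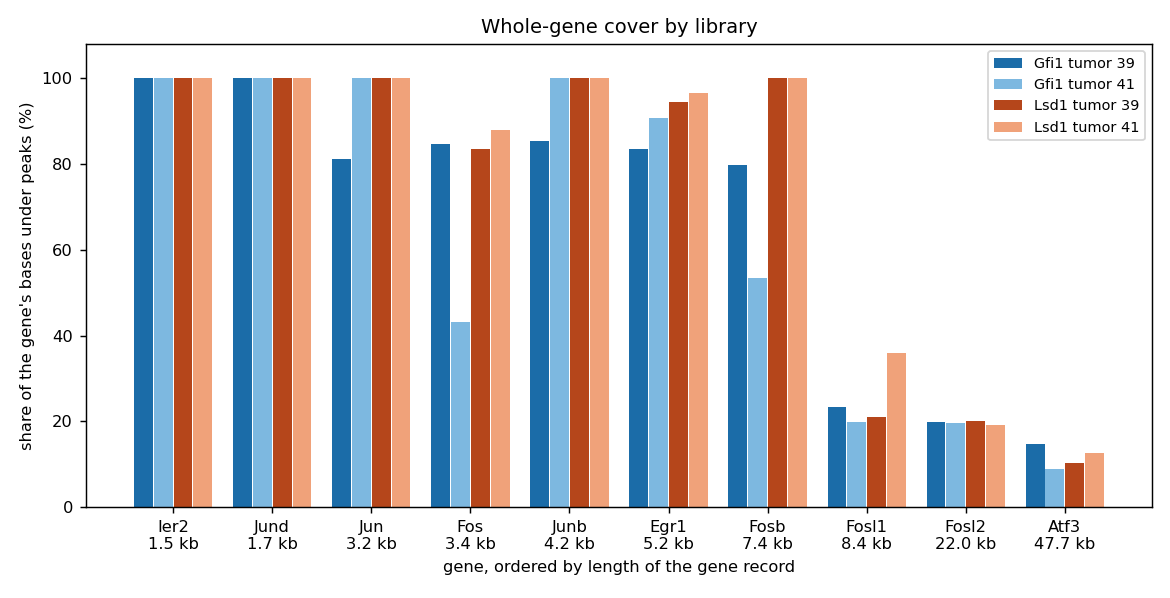
Share of the bases of each gene under peaks (y axis, in %) in the Gfi1 and Lsd1 libraries of tumors 39 and 41 (4 bars a gene), with genes ordered by length of the gene record. Ier2 and Jund are at 100% in every library, Fosb is at 100% for Lsd1 but at 79.8% and 53.5% for Gfi1, and the 3 longest genes stay at 35.9% or below.

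The Gfi1 and Lsd1 peaks of these genes lay largely on the same bases, to a degree near that of all genes with a peak in all 4 libraries. The shared length, the length common to both peaks divided by the length that either covers, had a median of 83.7% over the 10 genes and the 4 pairs of a Gfi1 and an Lsd1 library, against 79.5% over the 11653 genes with a peak in all 4. Paired within a tumor, with the tumor as a replicate block, the median was 82.7%, with 77.6% in tumor 39 and 89.0% in tumor 41, and between different tumors it was 84.8%. Over the 11653 genes the median was 78.9% within a tumor and 80.1% between different tumors. The replicates of 1 factor shared 79.9% for Gfi1 and 94.2% for Lsd1, against 80.4% and 84.6% over the 11653 genes. The median for Gfi1 and Lsd1 thus lay below that of the Gfi1 replicates in tumor 39 and above it in tumor 41. Egr1 shared 88.3% and 96.8% in tumors 39 and 41, Ier2 91.6% and 89.3%, Fosl1 90.3% and 93.1%, and Jund 83.7% and 88.6%. Fosb had the lowest value in each tumor, with 39.7% and 30.8%, and Junb shared 49.4% and 63.4%. Jun shared 71.4% and 95.7%, Fos 70.3% and 93.2% and Atf3 69.8% and 72.7%. Fosl2 went from 97.9% in tumor 39 to 44.2% in tumor 41, the tumor with the narrow Gfi1 peak.

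To count as high confidence, a replicate 1 peak had to rank among the highest 20% by score and to have 50% or more of its bases under replicate 2 peaks that ranked as high. By this rule 4387 Gfi1 and 5181 Lsd1 peaks were high confidence. Both sets are smaller than the published ones, so the calls given here are not calls in the published sets. A high-confidence Gfi1 peak lay at a start site of 8 of the 10 genes, against 22.9% of all protein-coding genes. Fosl1 missed it by its score. Fosl2 had Gfi1 peaks at percentile 98.6 and 88.2 but missed it because the wide peak of tumor 39 had under 50% of its length in the narrow one of tumor 41. A high-confidence Lsd1 peak lay at 8 of the 10, against 25.9% of all genes, and the exceptions were Fosl1 and, through its low score in tumor 39, Junb. Hence 7 of the 10 genes, Jun, Jund, Fos, Fosb, Egr1, Ier2 and Atf3, had both, against 19.5% of all protein-coding genes.

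Small differences in percentile between Lsd1 and Gfi1 are not described, since those of Jun, Jund and Ier2 depend on where the tied score of 3100 stands in each list. Larger differences in percentile points, Lsd1 minus Gfi1 in tumors 39 and 41, did not repeat at Junb, Fosl1, Fosl2 and Atf3. They were -56.5 and -0.29 at Junb, -17.3 and 21.4 at Fosl1, -1.27 and 10.0 at Fosl2, and -11.4 and 9.25 at Atf3. Fosb was lower for Lsd1 in both tumors, by -11.3 and -5.46 points.

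Away from the start sites, peaks of all 4 libraries met at 14 further places within the genes and 10 kb on either side. These are not all separate sites, since gaps between Gfi1 peaks part some of them. The 3 places of Junb lay under a single Lsd1 peak in each tumor, and so did the 3 of Fosl1. At least 1 further place was found for 9 of the 10 genes, against 33.5% of all protein-coding genes, and Jun was the exception. The count rests on the window, with 2 of the 10 genes against 14.7% of all genes within 2 kb and 9 against 61.6% within 50 kb. At 7 of the 14 places the start site of another gene lay within 1000 bp, namely Rnaseh2a, Gm49661 and Prdx2 behind Junb, Ccdc85b and Fibp behind Fosl1, and D730003I15Rik before Atf3. The other 7 places belonged to 6 genes, Jund, Fos, Fosb, Fosl2, Egr1 and Ier2, where 15.8% of all genes have such a place. The windows of long genes are longer, and this was not adjusted for.

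The highest of these lay downstream of Fos, between genes, from 85485217 to 85488248 on chromosome 12, with its centre 12842 bp past the start site. The Gfi1 peaks stood at percentile 93.0 and 88.2 and the Lsd1 peaks at 94.5 and 93.1, with widths of 3035, 3221, 3394 and 3519 bp. In each library this was the highest of the 7 sites. Its central 300 bases, printed above, hold AATC on 1 strand or the other at 3 places. AATC was in the central 300 bases of 68.7% of 7678 such sites of all genes and of 6 of these 7. Its presence alone therefore says little. The printed bases hold 14 CG dinucleotides, against a median of 6 over the 7678 sites. A site centred at -9851 bp from the start of Fosb, from 19318977 to 19320827 on chromosome 7, stood at percentile 84.5, 82.6, 90.5 and 75.5. It lies within the gene D830036C21Rik, and 9.45% of its length is exon of that gene. Fosl2 had a site from 32137577 to 32140272 on chromosome 5, 3123 bp past its start, at percentile 73.8, 78.8, 74.0 and 67.5. Its peaks began 1594 to 1776 bp past the start, close behind the start-site peaks, which ended at 1456 to 1533 bp. It is therefore not clearly apart from the promoter. The site lies in the first intron of the full-length transcript, and 76.7% of it lies in a single-exon transcript from 32136173 to 32139644.

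The sites near Jund, Egr1 and Ier2 were lower or less even. Jund had sites centred at -9152 and -7200 bp from its start. They stood at percentile 58.5 and 59.9 in the Gfi1 list of tumor 39, at 46.2 and 37.3 in that of tumor 41, and at 83.4 and 85.0 in the Lsd1 lists of both tumors, where a single Lsd1 peak spanned both. Both Lsd1 values lay above all Gfi1 values. Egr1 had a site centred at -9891 bp, at percentile 30.7, 46.1, 31.0 and 63.7, and Ier2 a site 6089 bp downstream, at 56.7, 14.0, 22.5 and 33.4.

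In CG dinucleotides, counted within 500 bp of the start site, the 10 genes had a median of 71 against 44 for all protein-coding genes. Jund had the most, with 102, more than 93.2% of genes, and Fosl2 had 96. Egr1 had the fewest, with 42, near the median of all genes, and yet a peak at percentile 97.5 or more in every library. Fosl1, with the lowest peaks, had 54. The number of CG dinucleotides is not a count of binding, and its part in the width and score of the peaks was not tested.

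Motifs were searched on both strands of the 7 promoters and set against 32851 promoters of the same 300 bases. A match is a description of the letters and not of a bound site. AATC, the core that Gfi1 recognises, was in 5 of the 7, Jun, Junb, Jund, Fos and Atf3, and in 73.1% of all promoters, so that the letters say little. The promoters of Fosb and Fosl2 had none in their 300 bases. They lay inside wider Gfi1 peaks of both tumors, and the rest of those peaks was not searched. The longer Gfi1 motif AATCACNGC was in 0 of the 7 and 0.919% of all. The AP-1 site TGANTCA and the full cAMP response element TGACGTCA were in 0 of 7, against 7.81% and 1.79% of all. Only these exact letters were counted, so that near matches, such as tgacatca in the printed Jun promoter, were not. The half-site TGACG, which lies within the full element, was in 4 of 7, Junb, Fos, Fosb and Atf3, against 20.8% of all. In the Fos promoter it begins 129 and 66 bases before the start, as marked in the sequence above. The GC box GGGCGG was in 5 of 7 (35.7% of all), the Egr site GCGNGGGCG, which can overlap it, in Fosb and Fosl2 (5.55%), CCAAT in 3 of 7 (37.4%), the E-box CACGTG in 0 of 7 (7.15%) and the CArG box of serum response factor in 0 of 7 (1.63%). With 7 promoters these counts carry no test. The search reached no further than 250 bases before the start, and motifs further upstream were not read. Egr1, Fosl1 and Ier2 were not part of it. The start in the RefSeq table lay 1210 bp before the start used for the peaks at Jund and 671 bp past it at Fosl2, and within 30 bp of it at the other 5, so that the Jund promoter, with 3 CG dinucleotides, is not the stretch in which 102 were counted.

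The other genes of the pathway were read in the same way from 3 lists. Of 40 further immediate early genes, 37 had a peak at a start site in all 4 libraries and 23, or 57.5%, had one in the upper 20% throughout, compared with 8 of the 10 genes described here. Covered whole in all 4 libraries were 7 of the 40, the shortest being Ier3 (1240 bp), Gadd45g (1791 bp), Gadd45b (2132 bp), Ier5l (2683 bp) and Zfp36 (3470 bp), of which Zfp36, an RNA-binding protein that shortens the life of early transcripts, had peaks of 14330, 13421, 14420 and 14597 bp. Of 21 dimer partners of the bZIP family, 18 had a peak at a start site in all 4 libraries and 11 in the upper 20% throughout. Mafg, a small Maf protein, was covered whole, and Batf, an AP-1 partner of lymphoid cells, had no peak at a start site in any library. Of 21 upstream kinases and factors of the serum response, 19 had a peak in all 4 and 10 in the upper 20% throughout. None of them was covered whole, and Mapk10, the neuronal Jun kinase, had no peak at a start site in any library. High-confidence Gfi1 peaks were found at 23 of the 40, 10 of the 21 and 12 of the 21, and high-confidence Lsd1 peaks at 27, 13 and 12. For comparison, the annotation as a whole gave 53.1% for a start-site peak in every library, 19.9% for the upper 20% throughout and 1.52% for whole cover. Its shares for high-confidence peaks were 22.9% with Gfi1 and 25.9% with Lsd1. No general share is given for genes without any start-site peak, such as Batf and Mapk10.

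The genes whose peaks were most like those of Jun in width over the 4 libraries, by mean absolute difference, were Cyfip2 (216 bp), Tnks1bp1 (257.5 bp) and Epb41 (321.5 bp). They are 119010, 25027 and 151909 bp long against the 3189 bp of Jun, so that peaks of the same width cover Jun whole in 3 libraries but only a small part of these genes.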

How the data were processed

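Peaks of 4 ChIP-seq libraries were read, Gfi1 and Lsd1 in MG tumors 39 and 41. The authors aligned reads to mm10 with BWA (0.6.2 in the submitters' processing notes, which also name FastQC and Picard), removed duplicates and called peaks separately in each library with MACS at default parameters against input chromatin. Each deposited list gives a position and a score per peak, and the definition of the score is not given in the sources used here. The score was ranked within its list, tied values taking their mean rank. Enrichment, by which the methods of the study select high-confidence peaks, was replaced by this score. Same-numbered libraries come from 1 tumor and are paired.

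Genes and TSSs came from GENCODE release M21 (GRCm38, the build of mm10). The members and lists were chosen with earlier results of these data known, so no test was run and values are set beside all protein-coding genes. The genes named are all 10 members, for each further list up to 5 genes covered whole and up to 5 with no peak at a TSS (shortest first), the 3 genes nearest to Jun in width, and genes with a TSS at a member's peak. Alternatives varied the TSS distance and set, the score and cover limits, the overlap rule, ties, window, pairing and the library left out. Cover, TSS peaks, high-confidence calls, shared length and percentiles were each tested on simulated data and were right in 200 of 200 cases. Python 3.11.15, numpy 2.4.6, scipy 1.17.1, pysam 0.24.0, matplotlib 3.10.9 and samtools 1.23.1 were used.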

Additional observations from a re-analysis of the deposited data

Results flagged for a closer look

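The peak at the start site of Fosl1 stood at opposite sides of the factors in the 2 tumors. In percentile points, Lsd1 minus Gfi1 was -17.3 in tumor 39 and 21.4 in tumor 41. The Gfi1 peak moved most, from percentile 78.6 in tumor 39 to 48.3 in tumor 41, while the Lsd1 peak was at 61.4 and 69.7. The widths, from 2028 to 2418 bp, did not part in this way. The difference between the tumors was not tested, since each has 1 library of a factor.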

How the results depend on the processing

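Of 46 alternatives to the 8 counts and medians, 42 left the value within its margin, which is 1.5 times for a count and 1 SD between the tumors for a percentile. Part of this was fixed in advance. With all 10 genes called at a start site in every library, leaving a library out had to return 10. A count over all 4 libraries cannot fall when a library is left out. A count of 8 or more of 10 genes cannot rise past its margin. The medians by tumor had an SD of 0.458 for Gfi1 and 0.565 for Lsd1 (n = 2). The number of genes covered whole, 2, ran from 2 to 4 over the libraries left out, with 4 without the Gfi1 library of tumor 39. The median Gfi1 percentile of 98.3 became 98.8 when tied scores took their highest rank, because 910 peaks of tumor 39 share the top scores, and ran from 98.0 to 98.6 when a library was left out. The median Lsd1 percentile of 97.6, taken over the means of both tumors, was 97.9 and 98.7 with 1 tumor alone. Genes with a further site fell from 9 to 2 in a window of 2 kb (14.7% of all genes), which by construction leaves fewer places, and were 9 at 50 kb (61.6%). Paired by tumor, as a replicate block, the shared length was 82.7% against 83.7%, and it ran from 81.2% to 85.9% when a library was left out. Counts of genes with high-confidence peaks ran from 7 to 9 for Gfi1 and from 6 to 9 for Lsd1 over the alternatives, which include ranking by peak width in place of the score, added after seeing the data, with 8 and 9. At the most upstream TSS alone, 9 of the 10 genes had a peak in all 4 libraries, Atf3 being the exception. Limits are the tied top scores, 2 tumors and lists without read depth.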

Other observations

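Within 50 kb, a further place upstream of Fos, from 85454160 to 85456605 on chromosome 12 (mm10), at -19730 to -17285 bp from the start site, had peaks of all 4 libraries with no start site of another gene within 1000 bp. In tumors 39 and 41 its percentiles were 84.9 and 95.7 in the Gfi1 lists and 96.6 and 89.8 in the Lsd1 lists. At Jund, a place from 70647181 to 70651113 on chromosome 8, at -51768 to -47836 bp from the start site, stood at 91.0, 88.7, 98.7 and 92.6. Both places were picked after their values had been seen.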
